A study of Homo sapiens with 12 samples.

Results

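EXT1 knockdown (EXT1kd) and wild-type (WT) HEK293 cells were compared in suspension culture, by RNA sequencing of 3 libraries each. These are 6 of the 12 libraries of the series, chosen by their labels. The other 6 hold both lines in adherent culture and enter here only through the shared model and the tests of a difference between cultures. HEK293 is a human embryonic kidney cell line used to make proteins and viral vectors. Both suspension groups had gone through 5 passages and grew in the serum-free medium EX-CELL 293, shaken at 120 rpm, at 37 °C and 5% CO2. EXT1kd cells differed from WT cells, as far as the labels say, in the knockdown of EXT1 alone. The method of the knockdown is not in the labels, nor is whether the EXT1kd line is clonal. Nothing in them ties a library to a culture of its own. The p-values therefore cover the variation among libraries alone, estimated from all 12 of the series, and that variation may be technical.

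EXT1 and its partner EXT2 form the polymerase that lengthens heparan sulfate, a sulfated sugar chain carried by core proteins such as syndecans and glypicans. Enzymes of the Golgi then trim and sulfate the chain. Finished chains at the cell surface bind growth factors, morphogens and matrix proteins, and adeno-associated virus (AAV) of some serotypes uses them to attach to cells. Fibroblast growth factor (FGF), Wnt, Hedgehog and bone morphogenetic protein (BMP) signals are among those that use heparan sulfate.

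EXT1 (ENSG00000182197) was at 15.4, 13.1 and 15.3 CPM (read counts scaled to a common library size) in the 3 EXT1kd libraries, against 49.5, 54.6 and 47.9 CPM in the 3 WT libraries. The groups did not overlap. The knockdown left 14.6 ± 1.30 CPM, against 50.7 ± 3.52 CPM in WT (SD, n = 3 each), a 3.48-fold lower level (log2 fold change -1.80 with an SE of 0.09 and an adjusted p of 4.77e-11). Unless another tool is named, adjusted p-values here come from the quasi-likelihood test of edgeR with Benjamini-Hochberg adjustment over all genes tested, and a gene is called at 0.05.

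The libraries held 14147637, 16141363 and 17133157 reads assigned to genes in EXT1kd and 17803128, 16937490 and 14401030 in WT. EXT1kd replicate 1 stood a little apart. It had the fewest reads but the most genes with a read, 26140, against 25054 and 25635 in the other 2 EXT1kd libraries and 24620 to 25450 in WT. Long intergenic non-coding RNA took 1.32% of its reads, against 0.808% and 0.749% in the other 2 EXT1kd libraries and 0.694% to 0.968% in WT. Counts are therefore also given without that library wherever it moves them by more than 1.5 times.

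Whole chromosomes differed between the lines. Over the 11818 genes with a mean of at least 5 CPM, the median log2 fold change was -0.36 on chromosome 14, -0.29 on chromosome 22, -0.22 on chromosome 11 and -0.21 on chromosome 6, and it was 0.30 on chromosome 9. On chromosome 14 only 3.62% of genes lay above 0, against 90.9% on chromosome 9. Chromosomes 17 and 13 were lower by less, with medians of -0.13 and -0.10, and chromosome 7 was at 0.10. The other 15 nuclear chromosomes measured lay between -0.05 and 0.08.

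The shift was present in each library. Against the WT mean, the genes of chromosome 14 had medians of -0.38, -0.33 and -0.35 in the 3 EXT1kd libraries, against 0.00, 0.01 and 0.00 in the 3 WT libraries. Those of chromosome 9 had 0.29, 0.30 and 0.32 in EXT1kd and 0.01, 0.00 and -0.00 in WT. The 3 EXT1kd libraries stood together and apart from WT on each of the 5 chromosomes. In linear terms the median gene of chromosome 14 was at 0.780 of its WT level and that of chromosome 9 at 1.23 times.

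**Figure D1:**
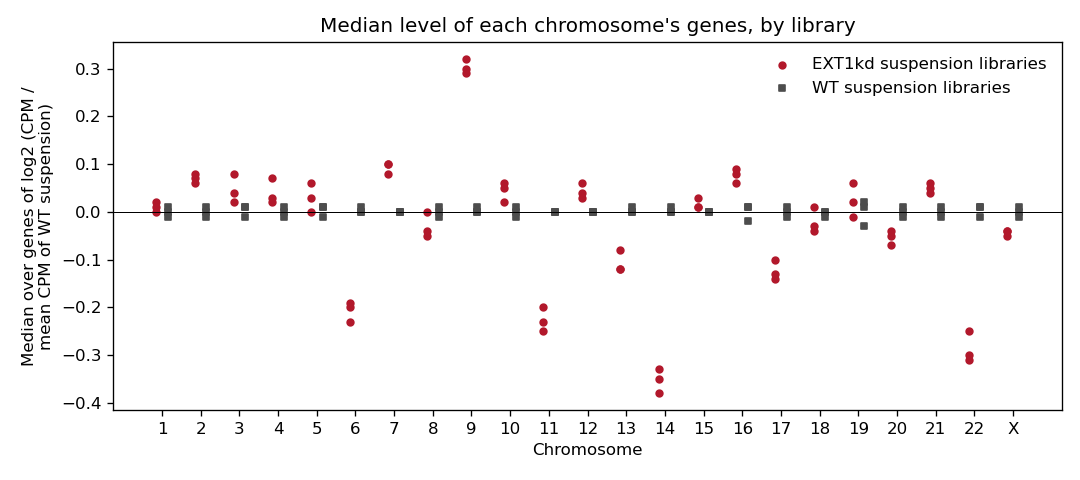
Median log2 ratio of each chromosome's genes to the WT suspension mean, by library (red circles, 3 EXT1kd libraries; grey squares, 3 WT libraries). EXT1kd libraries lie near -0.36 on chromosome 14 and near 0.30 on chromosome 9, while the WT libraries stay within 0.03 of 0 on all chromosomes shown.

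Every measured window of those chromosomes was shifted the same way. In windows of 10 Mb with at least 20 such genes, the medians of chromosome 14 ran from -0.41 to -0.31, those of chromosome 22 from -0.30 to -0.27, those of chromosome 11 from -0.27 to -0.10, those of chromosome 6 from -0.25 to -0.10 and those of chromosome 9 from 0.21 to 0.37. Chromosome 5, whose own median was 0.03, changed partway. Its windows at 0 to 10 and 30 to 40 Mb had medians of -0.26 and -0.21, and every measured window from 50 Mb on lay between 0.04 and 0.12. On chromosome 8, which carries EXT1 and whose own median was -0.02, the window at 140 to 150 Mb had a median of -0.25 over 68 genes (-0.24, -0.28 and -0.23 in the 3 EXT1kd libraries), and its other measured windows lay between -0.06 and 0.07. DNA copy number was not measured in these libraries, and its part in the shifts was not tested.

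**Figure D2:**
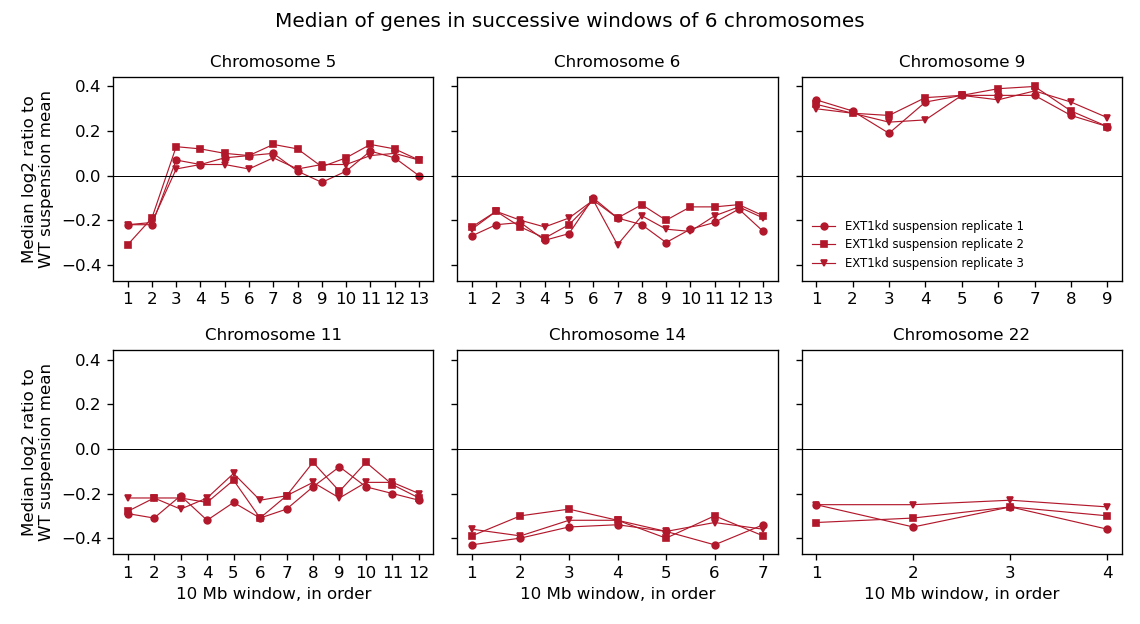
Median log2 ratio to the WT suspension mean of genes in successive 10 Mb windows of 6 chromosomes (windows with at least 20 genes, in order), 1 line for each EXT1kd library. Chromosomes 6, 9, 11, 14 and 22 are shifted from end to end, whereas chromosome 5 steps from about -0.2 in its first 2 windows to slightly above 0.

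Many calls lay on these chromosomes. Of 17115 genes tested, 3577 (20.9%) passed an adjusted p of 0.05, 1419 higher (8.29%) and 2158 lower (12.6%) in EXT1kd. Scaling by library totals alone gave 1931 higher and 1783 lower, so that 52.0% of the calls were higher, against 39.7% with the TMM scaling used here. The count was 2208 without WT replicate 2 and 2380 without WT replicate 3. The number of higher genes was 918, 767 and 859 without WT replicate 1, 2 or 3, and that of lower genes was 1431 without EXT1kd replicate 1. Chromosomes 6, 9, 11, 14 and 22 held 20.3% of the genes tested but 36.9% of those called. On chromosome 14, 1 gene was called higher and 285 lower. When the median of its chromosome was taken from every gene, 2166 genes passed (12.7%), 905 higher (5.29%) and 1261 lower (7.37%). Of the 3577 calls, 1854 remained in the same direction, 1723 were lost and 0 turned round, and 312 were gained. Both counts are given for each gene list below, the second as "after removal". They are to be read against the shares of all genes tested, 8.29% higher and 12.6% lower, and 5.29% and 7.37% after removal.

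Changes of at least 2-fold were fewer, 203 higher (1.19%) and 380 lower (2.22%), and 93 of the 380 lay on chromosomes 6, 11, 14 and 22. The rises and falls described next are the 12 largest in each direction among protein-coding genes with a mean of at least 10 CPM that were called with and without chromosome medians, with libraries that did not overlap. Such a lack of overlap was common, in 7501 of the 17115 genes tested (43.8%).

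The largest rise was that of CGA, the alpha subunit shared by the glycoprotein hormones, at 276, 303 and 308 CPM in EXT1kd and 109, 117 and 116 CPM in WT (log2 fold change 1.37, SE 0.09, adjusted p = 1.72e-09). All 3 EXT1kd libraries lay far above all 3 WT libraries. BST2, an interferon-induced membrane protein that tethers viruses, was at 42.7, 42.5 and 47.8 CPM in EXT1kd and 18.2, 19.3 and 18.2 CPM in WT (1.26, SE 0.13). GADD45B, a stress-induced gene, was at 27.1, 27.3 and 28.0 CPM in EXT1kd and 12.4, 11.6 and 11.4 CPM in WT (1.22, SE 0.13). These 3 genes varied little within a group. The sulfotransferase SULT1A1, whose near-identical paralogs make its count uncertain, was at 108, 112 and 123 CPM in EXT1kd and 50.6, 55.4 and 55.6 CPM in WT (1.09, SE 0.10).

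EXT1kd replicate 1 was the highest of its group for several other rises. The zinc finger gene ZNF667 was at 40.5, 29.4 and 30.5 CPM in EXT1kd and 12.4, 14.5 and 15 CPM in WT (1.26, SE 0.12). The giant muscle protein gene TTN was at 43.2, 27.5 and 25.6 CPM in EXT1kd and 20.2, 13.9 and 13.4 CPM in WT (1.01, SE 0.19). AMH, the anti-Müllerian hormone, was at 43.0, 28.5 and 27.0 CPM in EXT1kd and 18.8, 15.1 and 17.4 CPM in WT (0.94, SE 0.17). Replicate 1 exceeded the other EXT1kd libraries in these genes, which were chosen among those whose groups did not overlap. The remaining rises were YJEFN3 (1.21), NTNG2, a netrin-related axon guidance protein (1.04), ASTN1, an adhesion protein of migrating neurons (1.02), ZNF83 (1.01) and TMOD1, which caps actin filaments (1.01). NTNG2 and TMOD1 lie on chromosome 9 and were at 0.74 and 0.70 after removal.

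Among the falls, the neural transcription factor SOX11 was at 2.99, 3.47 and 2.69 CPM in EXT1kd and 26.5, 27.7 and 22.5 CPM in WT (-3.07, SE 0.12, adjusted p = 4.80e-12). SPARC, a collagen-binding matricellular protein, was at 11.7, 11.7 and 14 CPM in EXT1kd and 70.4, 74.7 and 68.5 CPM in WT (-2.51, SE 0.09). The EXT1kd libraries lay far below the WT libraries in both genes. Epithelial genes were also among the largest falls, although the list of 31 keratins and epithelial junction genes had a median of only -0.06. The desmosomal protein PKP3 was at 3.05, 3.28 and 3.93 CPM in EXT1kd and 22, 23.8 and 21.8 CPM in WT (-2.71, SE 0.14), and the keratin KRT19 at 3.60, 3.59 and 5.72 CPM in EXT1kd and 25, 29.1 and 26.1 CPM in WT (-2.62, SE 0.15).

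PLA2G4A, a phospholipase that releases arachidonic acid, was at 3.05, 3.47 and 2.86 CPM in EXT1kd and 18.4, 19 and 19.5 CPM in WT (-2.60, SE 0.12). MID1IP1, which activates the first enzyme of fatty acid synthesis, was at 14, 15 and 15.9 CPM in EXT1kd and 57.7, 58.6 and 61.1 CPM in WT (-1.98, SE 0.10). CRABP2, which carries retinoic acid, was at 12.1, 10.6 and 12.3 CPM in EXT1kd and 40.8, 44.8 and 42.7 CPM in WT (-1.87, SE 0.11). The cysteine protease CTSZ was at 16.6, 17.3 and 18.2 CPM in EXT1kd and 63.5, 62.6 and 58.9 CPM in WT (-1.83, SE 0.08). In these 4 genes the spread within either group was small beside the gap between groups. The remaining falls were the axon guidance molecule SEMA5A (-2.34), the aminopeptidase ENPEP (-2.29), FGF13, an intracellular FGF homologous factor (-2.00), and the neuronal transmembrane protein SLITRK5 (-1.95).

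**Figure D3:**
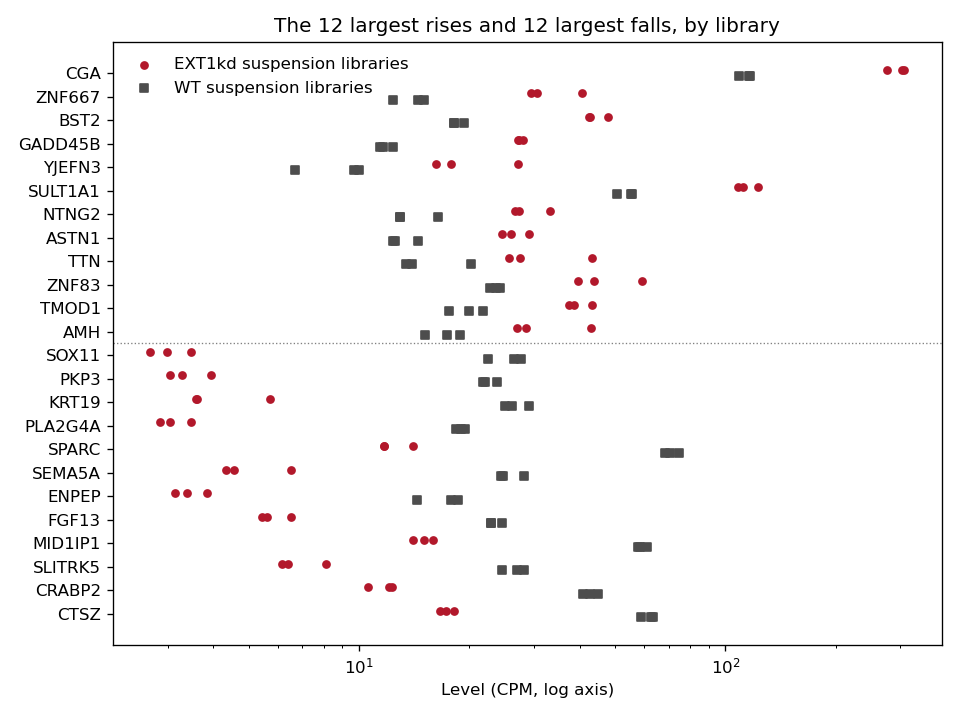
Level of the 12 largest rises (above the dotted line) and 12 largest falls in each suspension library, in CPM on a log axis (red circles, EXT1kd; grey squares, WT). The 24 genes were chosen among those whose groups do not overlap. CGA lies near 300 CPM in EXT1kd and SOX11 near 3 CPM.

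Of 23 other enzymes measured that build and modify heparan sulfate, 5 were called (21.7%, against 20.9% of all genes tested), 2 higher and 3 lower, and 1 and 2 after removal. The number higher was 0 without WT replicate 1 or EXT1kd replicate 2, and the number lower was 1 without EXT1kd replicate 1. EXT2, the partner of EXT1 in the polymerase, was at 80.7, 80.7 and 93.2 CPM in EXT1kd and 108, 120.0 and 118 CPM in WT (-0.45, SE 0.07, adjusted p = 0.000262). EXT2 lies on chromosome 11, and its change was -0.22 after removal (adjusted p = 0.0495), with an adjusted p of 0.0522 when the median of genes within 10 Mb was taken away instead. The sulfatase SULF2, which removes sulfate from finished chains, was at 99.0, 109 and 110.0 CPM in EXT1kd and 130.0, 137 and 128 CPM in WT (-0.31, SE 0.07), a call lost without EXT1kd replicate 1 (adjusted p = 0.0518). HS3ST3B1, a 3-O-sulfotransferase, was at -0.33 (SE 0.09), a call lost after removal (adjusted p = 0.147), with local medians removed (adjusted p = 0.205) and without WT replicate 2 (adjusted p = 0.06) or EXT1kd replicate 1 (adjusted p = 0.0616).

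Both members called higher lost their call when either of 2 libraries was left out. EXTL2, a relative of EXT1, was at 38.0, 40.4 and 37.2 CPM in EXT1kd and 28.0, 32.4 and 30.3 CPM in WT (0.35, SE 0.09), a call lost without WT replicate 1 (adjusted p = 0.0737) or EXT1kd replicate 2 (adjusted p = 0.0567). PAPSS2, which makes the sulfate donor, was at 101, 108 and 105 CPM in EXT1kd and 85.3, 88.5 and 87.0 CPM in WT (0.27, SE 0.07), a call lost after removal (adjusted p = 0.0501) and without WT replicate 1 (adjusted p = 0.0538) or EXT1kd replicate 2 (adjusted p = 0.0567). The groups did not overlap in either gene, as was so for 43.8% of all genes tested. The 3-O-sulfotransferase gene HS3ST2 had the highest fitted value of the list, 1.33 (SE 0.57), from 14, 17 and 22 reads in EXT1kd and 7, 8 and 6 reads in WT, and did not pass (adjusted p = 0.106).

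Of 17 core proteins measured that carry the chains, 0 were higher and 10 lower (8 after removal), with a median log2 fold change of -0.26, against -0.00 over all genes tested. Of the 6 glypicans, which are anchored to the membrane by lipid, all were called lower. GPC5 had 9, 13 and 12 reads in EXT1kd and 35, 41 and 32 reads in WT, 3.15-fold lower (95% exact binomial interval 2.13 to 4.78). GPC2 (-0.71, adjusted p = 0.0455) lost its call without any 1 of the 6 libraries (adjusted p = 0.0534 to 0.166), with DESeq2 (adjusted p = 0.052), library totals (adjusted p = 0.0597) or log2(FPKM + 0.1) values (adjusted p = 0.0764). The secreted proteoglycan SPOCK3 had 5, 2 and 2 reads in EXT1kd and 19, 35 and 26 reads in WT, 8.82-fold lower (interval 4.42 to 20), and the fitted log2 fold change, which depends on the prior count at so few reads, was -3.71 without EXT1kd replicate 1 against -3.09 with it. COL18A1, a collagen that carries heparan sulfate, was at 57.6, 60.4 and 63.6 CPM in EXT1kd and 91.9, 84.6 and 83.4 CPM in WT (-0.52, SE 0.14), a call lost without WT replicate 1 (adjusted p = 0.0526) or EXT1kd replicate 1 (adjusted p = 0.053) and with log2(FPKM + 0.1) values (adjusted p = 0.0515). Syndecan SDC1 was at -0.24 and did not pass as scaled (adjusted p = 0.0899). SDC1 was called lower after removal (-0.31, adjusted p = 0.0484) and is among the 8 counted there, so not all of those 8 were among the 10. It did not pass with local medians removed (adjusted p = 0.0538). The count of 10 was 4, 5 and 5 without WT replicate 1, 2 or 3 and 2 without EXT1kd replicate 1, so that most of the 6 glypicans were not called without EXT1kd replicate 1.

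Of 26 enzymes of the linker that joins the chains to the core and of chondroitin or dermatan sulfate, 1 was higher and 4 lower, also after removal. That was 19.2% called, against 20.9% of all genes tested. DSEL, an epimerase of dermatan sulfate, was at 2.10, 3.16 and 2.47 CPM in EXT1kd and 8.07, 9.01 and 8.50 CPM in WT (-1.72, SE 0.15). XYLT1, which starts the linker, was at 1.56, 1.52 and 1.68 CPM in EXT1kd and 4.09, 2.93 and 2.90 CPM in WT (-1.06, SE 0.19). CHST14, which sulfates dermatan, was at -0.65 (SE 0.12). CHPF2, a chondroitin polymerizing factor, was at 0.43 (SE 0.10), a call lost when local medians were removed (adjusted p = 0.0547).

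Of 21 FGF and ERK feedback genes, 1 was higher and 3 lower (3 and 1 after removal, and 0 to 2 lower without any 1 library). SPRY4, a feedback inhibitor of FGF signalling, was at 22.3, 22.9 and 23.3 CPM in EXT1kd and 21.5, 24.2 and 22.2 CPM in WT, and the groups overlapped. SPRED3, a related inhibitor, was higher (0.59, SE 0.15). Of 14 FGF ligands and receptors, 2 were higher and 2 lower (3 and 3 after removal). The secreted ligand FGF5 was at 10.6, 10.6 and 11.3 CPM in EXT1kd and 4.15, 6.26 and 5.04 CPM in WT (1.07, SE 0.16), and the receptor FGFR1 was at 0.32 (SE 0.08). FGF12, like FGF13 an intracellular member of the family, fell (-0.82, SE 0.20).

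Of 27 Wnt targets and feedback genes, 1 was higher and 11 were lower (1 and 9 after removal), with a median of -0.27. The count of 11 was 7 without WT replicate 1 and 6 without EXT1kd replicate 1. The Wnt receptor FZD10 was at 2.31, 2.80 and 3.48 CPM in EXT1kd and 9.41, 10.3 and 8.91 CPM in WT (-1.73, SE 0.20). SFRP1, a secreted Wnt-binding protein, was at 9.16, 9.79 and 8.86 CPM in EXT1kd and 25.5, 22.9 and 28.5 CPM in WT (-1.47, SE 0.11). The groups were well apart in both genes, while AXIN2, the classical feedback target, overlapped between them (-0.17, adjusted p = 0.356). FZD2 was at -0.65 (SE 0.12).

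Of 22 BMP and TGF-beta genes, 3 were higher and 5 lower (2 and 3 after removal). GREM1, a secreted BMP antagonist, was at 3.05, 3.34 and 3.53 CPM in EXT1kd and 14.3, 14.6 and 14.3 CPM in WT (-2.12, SE 0.17). INHBA, the beta A subunit of activin, was at 5.97, 5.90 and 5.78 CPM in EXT1kd and 1.29, 1.70 and 1.45 CPM in WT (1.99, SE 0.31). Neither gene varied much within a group. LTBP2 and the ligand BMP4, both on chromosome 14, were at -0.95 and -0.86, and at -0.59 and -0.50 after removal. ID1, a direct BMP target, overlapped between groups (-0.13, adjusted p = 0.758). Of 13 Hedgehog genes 1 was higher and 0 lower (0 and 1 after removal; 0 higher without any 1 library but EXT1kd replicate 1), and the target GLI1 did not pass (0.55, adjusted p = 0.11). The share of Hedgehog genes called was 7.69%, against 20.9% of all genes tested.

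Of 19 measured targets of cAMP and its transcription factor CREB, 9 were higher, 0 lower and 10 not called (8 higher and 0 lower after removal, and 6 to 8 higher without any 1 library), with a median of 0.31. Their summed level was 569 to 571 CPM in EXT1kd and 341 to 349 CPM in WT. CGA alone averaged 296 CPM in EXT1kd and 114 CPM in WT, and so made up most of the rise in the sum. CREB binds the 8 letters TGACGTCA, called the cyclic AMP response element (CRE), which read the same on both strands. The promoters of CGA and VGF, the only called members found with this motif in the window searched, are shown to place it, with the motif in capitals. Each is the 250 bases before the RefSeq gene start on the gene's own strand (GRCh38.p14), for CGA chr6:87095107-87095356, minus strand, and for VGF chr7:101165570-101165819, minus strand.
CGA: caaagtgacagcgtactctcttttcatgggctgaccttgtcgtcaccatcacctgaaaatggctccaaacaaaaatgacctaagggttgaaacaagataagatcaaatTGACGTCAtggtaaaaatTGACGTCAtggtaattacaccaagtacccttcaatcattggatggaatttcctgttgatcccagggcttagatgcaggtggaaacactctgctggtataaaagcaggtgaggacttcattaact
VGF: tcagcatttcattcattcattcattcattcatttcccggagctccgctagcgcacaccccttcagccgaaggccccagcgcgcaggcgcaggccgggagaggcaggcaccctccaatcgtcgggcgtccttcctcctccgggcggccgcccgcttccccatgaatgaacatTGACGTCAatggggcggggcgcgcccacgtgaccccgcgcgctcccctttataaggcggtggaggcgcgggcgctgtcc
CGA holds 2 copies, at 142 to 135 and 124 to 117 bases before the start, and VGF holds 1 at 79 to 72 bases. Of 35116 RefSeq promoters of this length, 578 (1.65%) held the motif and 19 held 2 or more. Of the 11477 tested genes matched to a promoter by symbol, 2.80% held it, against 4.17% of the 1031 called higher and 2.50% of the 1637 called lower among them. Of the 16 members of the list matched, 3 held it. A match describes these letters only.

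The other members that were higher included the kinase SIK1 (1.05), the secreted glycoprotein STC1 at 17.1, 16.2 and 16.4 CPM in EXT1kd and 9.75, 7.08 and 10.8 CPM in WT (0.85, SE 0.14), and the cAMP-degrading enzymes PDE4B (0.75, SE 0.16) and PDE4D (0.45, SE 0.10). CREM, a CREB relative, was at 39.6, 41.6 and 41.2 CPM in EXT1kd and 28.8, 30.5 and 28.9 CPM in WT (0.47, SE 0.08). INHBA, described above, is also on this list. SIK1 was at 5.90, 2.61 and 2.13 CPM in EXT1kd and 1.68, 1.58 and 1.80 CPM in WT, so that EXT1kd replicate 1 decided its size, and its change without that library was 0.51 (adjusted p = 0.228). Its call was also lost without any 1 WT library (adjusted p = 0.0592 to 0.0853), with limma-voom (adjusted p = 0.0735) and on both FPKM scales (adjusted p = 0.0935 and 0.0724). VGF, a secreted neuropeptide precursor, was at 3.46, 4.62 and 5.55 CPM in EXT1kd and 2.97, 2.93 and 2.63 CPM in WT (0.68, adjusted p = 0.0344), a call lost after removal (adjusted p = 0.0903) and after removal of local medians (adjusted p = 0.0862), with log2(FPKM + 0.1) values (adjusted p = 0.0603) and without any 1 library but EXT1kd replicate 1 (adjusted p = 0.0752 to 0.166). The small GTPase GEM (0.58) lost its call without WT replicate 1 (adjusted p = 0.0576) or 2 (adjusted p = 0.105) or EXT1kd replicate 1 (adjusted p = 0.0669). The immediate early gene FOSB, of another list, was at 5.29, 5.84 and 5.67 CPM in EXT1kd and 2.58, 3.57 and 2.07 CPM in WT (1.02, SE 0.24), and of the 21 immediate early genes 3 were higher and 3 lower (2 and 4 after removal; 1 lower without WT replicate 2 or 3 or EXT1kd replicate 1).

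Of 29 cholesterol synthesis genes and SREBP2 targets, 0 were higher and 16 lower, also 16 after removal, and 13 to 17 without any 1 suspension library. Their summed level was 4520 to 4820 CPM in EXT1kd and 5920 to 6010 CPM in WT. HMGCS1, which makes the precursor of mevalonate, was at 423, 445 and 419 CPM in EXT1kd and 807, 761 and 773 CPM in WT (-0.86, SE 0.09). ACAT2, an acetyl-CoA thiolase, was at 154, 174 and 173 CPM in EXT1kd and 255, 268 and 257 CPM in WT (-0.64, SE 0.07). The groups stood clear of each other in both genes.

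The sterol reductase TM7SF2 fell as well (-1.04, SE 0.15). SREBF2, which encodes the transcription factor SREBP2, was named because it alone of the list's matched members held the motif searched. It was at 247, 256 and 270.0 CPM in EXT1kd and 361, 370.0 and 359 CPM in WT (-0.50, SE 0.06). SREBF2 lies on chromosome 22 and was at -0.21 after removal (adjusted p = 0.0325). Its promoter (RefSeq, GRCh38.p14, chr22:41832855-41833104, plus strand, the 250 bases before the start) is shown with that motif, the sterol regulatory element (SRE) TCACNCCAC, in capitals.
SREBF2: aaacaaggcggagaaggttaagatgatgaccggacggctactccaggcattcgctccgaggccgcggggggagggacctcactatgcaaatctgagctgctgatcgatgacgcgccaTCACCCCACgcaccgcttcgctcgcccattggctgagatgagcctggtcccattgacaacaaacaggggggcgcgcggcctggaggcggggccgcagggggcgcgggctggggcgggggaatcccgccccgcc
On either strand, TCACNCCAC or GTGGNGTGA was in 310 of 35116 promoters (0.883%) and in 1 of the 22 list members matched, at 133 to 125 bases before the start of SREBF2. Other forms of the element were not searched.

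Of 22 genes of fatty acid synthesis and desaturation, 0 were higher and 9 lower, but 5 after removal, and 5 without WT replicate 2 or EXT1kd replicate 1. Beside MID1IP1, the desaturase FADS2 on chromosome 11 averaged 137 ± 3.28 CPM in EXT1kd and 202 ± 3.17 CPM in WT (-0.56, SE 0.07; -0.33 after removal), and the elongase ELOVL4 on chromosome 6 was at -0.56 (SE 0.09; -0.35 after removal). Fatty acid synthase FASN did not pass (-0.27, adjusted p = 0.0698). Of 20 lipid droplet and phospholipase genes 3 were higher and 3 lower (2 and 2 after removal). The lipases LIPH (1.18, SE 0.13) and PNPLA7 (1.18, SE 0.20; 0.88 after removal) were higher, and the hormone-sensitive lipase LIPE was lower (-1.02, SE 0.19).

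Genes of steroid metabolism and steroid receptors had 2 of 21 higher and 9 lower (2 and 8 after removal), with a median of -0.50. The progesterone receptor PGR was at 0.814, 1.03 and 0.561 CPM in EXT1kd and 9.02, 6.20 and 6.70 CPM in WT (-3.19, SE 0.26). Steroid sulfatase STS had 1, 2 and 4 reads in EXT1kd and 20, 29 and 24 reads in WT, 10.3-fold lower (95% exact binomial interval 4.78 to 26.6). FDXR, which passes electrons to steroid-making enzymes and is also a p53 target, was at 30.3, 33.0 and 33.9 CPM in EXT1kd and 59.3, 55.8 and 57.2 CPM in WT (-0.82, SE 0.13). The number higher was 1 without any 1 library except EXT1kd replicate 2.

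Of 28 p53 target genes, 1 was higher and 13 were lower (0 and 10 after removal; 0 higher without WT replicate 2 or EXT1kd replicate 1 or 2), with a median of -0.24. SPATA18, which takes part in mitochondrial quality control, was at 1.02, 1.76 and 1.07 CPM in EXT1kd and 6.22, 5.85 and 4.56 CPM in WT (-2.11, SE 0.24). The DNA repair factor DDB2 was at 35.8, 32.4 and 33.2 CPM in EXT1kd and 56.9, 54.0 and 59.5 CPM in WT (-0.75, SE 0.08), and TP53I3 was at -0.65 (SE 0.15). CDKN1A, the p21 inhibitor of the cell cycle, was at -0.39, but it lies on chromosome 6 and did not pass after removal (-0.18, adjusted p = 0.223) or with local medians removed (-0.15, adjusted p = 0.341).

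Interferon-stimulated genes went both ways, with 9 of 33 higher and 5 lower (7 and 2 after removal; 2 lower without any 1 WT library or EXT1kd replicate 3, and 3 without EXT1kd replicate 1). Beside BST2, the antiviral protein IFIT2 was at 2.58, 4.07 and 3.65 CPM in EXT1kd and 0.896, 1.81 and 1.04 CPM in WT (1.45, SE 0.32). The membrane proteins IFITM2 (-1.51, SE 0.21) and IFITM3 (-1.50, SE 0.17), near-identical copies whose reads can be split wrongly, were lower.

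Of 29 SOX and other transcription factors of neural development 1 was higher and 13 lower (0 and 8 after removal), with a median of -0.24, and the 1 higher lost its call without any 1 library. Beside SOX11, there were falls of SOX3, at 1.76, 1.95 and 1.68 CPM in EXT1kd and 6.83, 8.49 and 7.81 CPM in WT (-2.10, SE 0.17), and of SOX9, at 22, 19.6 and 21.3 CPM in EXT1kd and 38.6, 34.2 and 34.9 CPM in WT (-0.78, SE 0.10). Both are regulators of progenitor cells. COL2A1, the cartilage collagen that SOX9 is known to activate in chondrocytes, was at 92.6, 89.0 and 101 CPM in EXT1kd and 228, 245 and 228 CPM in WT (-1.31, SE 0.07).

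Neuronal genes did not move one way. Of 22 genes of the neuronal cytoskeleton and synapse, 5 were higher and 8 lower (3 and 5 after removal, and 4 lower without WT replicate 2). The growth cone protein GAP43 was at 2.17, 2.37 and 2.41 CPM in EXT1kd and 0.616, 0.644 and 0.691 CPM in WT (1.83, SE 0.37), and the adhesion molecule L1CAM at 9.30, 9.0 and 10.4 CPM in EXT1kd and 4.15, 4.62 and 4.15 CPM in WT (1.15, SE 0.22). The neurofilament NEFM fell (-1.51, SE 0.18), whereas its partner NEFL overlapped between groups (-0.09, adjusted p = 0.375).

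Of 21 Eph receptors and ephrins, guidance cues that act by cell contact, 0 were higher and 8 lower (6 after removal). EPHB6 was at 2.65, 1.52 and 1.57 CPM in EXT1kd and 4.26, 3.98 and 5.39 CPM in WT (-1.25, SE 0.23). EPHB3 (-0.89, SE 0.20) and EPHB1 (-0.88, SE 0.20) also fell. The ligand EFNA2 had 2, 4 and 9 reads in EXT1kd and 21, 20 and 15 reads in WT, 3.70-fold lower (95% exact binomial interval 2.07 to 7.05), and its fitted log2 fold change was -2.51 without EXT1kd replicate 3, against -1.87 with it. Of 29 plexins, semaphorins and neuropilins 4 were higher and 6 lower (2 and 5 after removal). SEMA4A (-1.08), SEMA3F (-1.05) and SEMA4F (-0.53) fell with SEMA5A, and PLXNA1 overlapped between groups (0.10, adjusted p = 0.446).

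Positional identity genes of the HOX clusters had 9 of 35 higher and 4 lower (6 and 3 after removal). HOXA5 was at 42.5, 44.0 and 39.6 CPM in EXT1kd and 22.1, 21.2 and 23.6 CPM in WT (0.92, SE 0.08). HOXD9 was at 16.4, 11.2 and 9.82 CPM in EXT1kd and 7.23, 6.50 and 6.98 CPM in WT (0.85, SE 0.17), highest in EXT1kd replicate 1. HOXC10 fell (-0.94, SE 0.17). The count of 9 was 5 without WT replicate 3 or EXT1kd replicate 2, and that of 4 was 2 without WT replicate 2 or EXT1kd replicate 3.

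Of 26 cadherins outside the protocadherin clusters 3 were higher and 9 lower, also after removal. CDH3, placental cadherin, was at 4.82, 7.05 and 4.94 CPM in EXT1kd and 11.8, 13.5 and 13.8 CPM in WT (-1.21, SE 0.19). PCDH17, a protocadherin, was at 10.9, 10.3 and 9.82 CPM in EXT1kd and 22.8, 22.5 and 24.9 CPM in WT (-1.18, SE 0.11). DCHS1, a ligand of FAT cadherins, was at -1.12 (SE 0.15), and CDH12 was higher (0.81, SE 0.15). CDH2, N-cadherin, differed by only -0.22 (SE 0.06), a call lost with no filter on low counts (adjusted p = 0.0514), without WT replicate 2 (adjusted p = 0.1) or WT replicate 3 (adjusted p = 0.053), and without EXT1kd replicate 1 (adjusted p = 0.112) or EXT1kd replicate 3 (adjusted p = 0.0547).

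Of 31 keratins and epithelial junction genes 3 were higher and 7 lower (3 and 8 after removal). PROM1, a membrane protein of epithelial and stem cells, had 2, 12 and 13 reads in EXT1kd and 47, 33 and 40 reads in WT, 4.41-fold lower (95% exact binomial interval 2.89 to 6.97). The keratin KRT80 went the other way, with 12, 18 and 28 reads in EXT1kd and 4, 6 and 3 reads in WT, 4.50-fold higher (interval 2.43 to 8.95).

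Collagens were divided, with 8 of 29 higher and 7 lower (7 and 7 after removal; 5 higher without WT replicate 2 or EXT1kd replicate 1). COL26A1 was at 2.78, 1.70 and 2.13 CPM in EXT1kd and 6.33, 5.03 and 6.70 CPM in WT (-1.45, SE 0.26). COL5A1 was lower (-1.18, SE 0.14) although it lies on chromosome 9, and was at -1.48 after removal. COL1A1 did not pass (-0.16, adjusted p = 0.313). Of 23 laminins and basement membrane genes 0 were higher and 9 lower (7 after removal). The laminin chain LAMC3, also on chromosome 9, was at 4.95, 5.84 and 4.09 CPM in EXT1kd and 11.3, 9.72 and 11.1 CPM in WT (-1.11, SE 0.15), and the fibulin FBLN1 on chromosome 22 was at 39.6, 45.7 and 47.2 CPM in EXT1kd and 94.3, 93.7 and 85.5 CPM in WT (-1.05, SE 0.08; -0.76 after removal). LAMA1 overlapped between groups (-0.06, adjusted p = 0.629). Of 28 matricellular and elastic fibre proteins 2 were higher and 9 lower (2 and 7 after removal). The elastic fibre proteins EMILIN2 (0.89, SE 0.09) and EMILIN3 (-0.87, SE 0.14) went opposite ways.

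Of 37 integrins and focal adhesion genes 5 were higher and 9 lower (4 and 7 after removal; 3 higher without WT replicate 1 or 3). The integrin subunit ITGA8, of mesenchymal cells in the kidney, was at 3.12, 3.95 and 3.09 CPM in EXT1kd and 9.30, 8.90 and 10.4 CPM in WT (-1.49, SE 0.13). The actin cross-linker FLNC was at 11.9, 13.1 and 13.6 CPM in EXT1kd and 29.0, 35.3 and 31.1 CPM in WT (-1.30, SE 0.10). TNS3 (-1.04, SE 0.14) and ITGA9 (-0.96, SE 0.20) fell, and ITGA1 did not pass (0.12, adjusted p = 0.449).

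Of 29 growth factors of receptor tyrosine kinases 3 were higher and 6 lower (2 and 4 after removal; 1 higher without WT replicate 1 or 3). PDGFD, a platelet-derived growth factor, had 7, 7 and 5 reads in EXT1kd and 63, 60 and 46 reads in WT, 8.83-fold lower (95% exact binomial interval 5.48 to 15). The heparin-binding growth factor PTN had 1, 2 and 0 reads in EXT1kd and 16, 22 and 13 reads in WT, 16.9-fold lower (interval 5.46 to 84.5), and its fitted value ran from -3.33 without EXT1kd replicate 3 to -4.76 without EXT1kd replicate 2. Of 10 serpins 1 was higher and 5 lower (1 and 4 after removal). The granzyme B inhibitor SERPINB9 was at 0.814, 0.912 and 0.729 CPM in EXT1kd and 4.43, 4.68 and 4.56 CPM in WT (-2.47, SE 0.23). SERPINF1 (-1.35, SE 0.15) and SERPINB1 (-0.58, SE 0.10) also fell, and SERPINI1, which acts in neurons, was higher (0.71, SE 0.17).

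**Figure D4:**
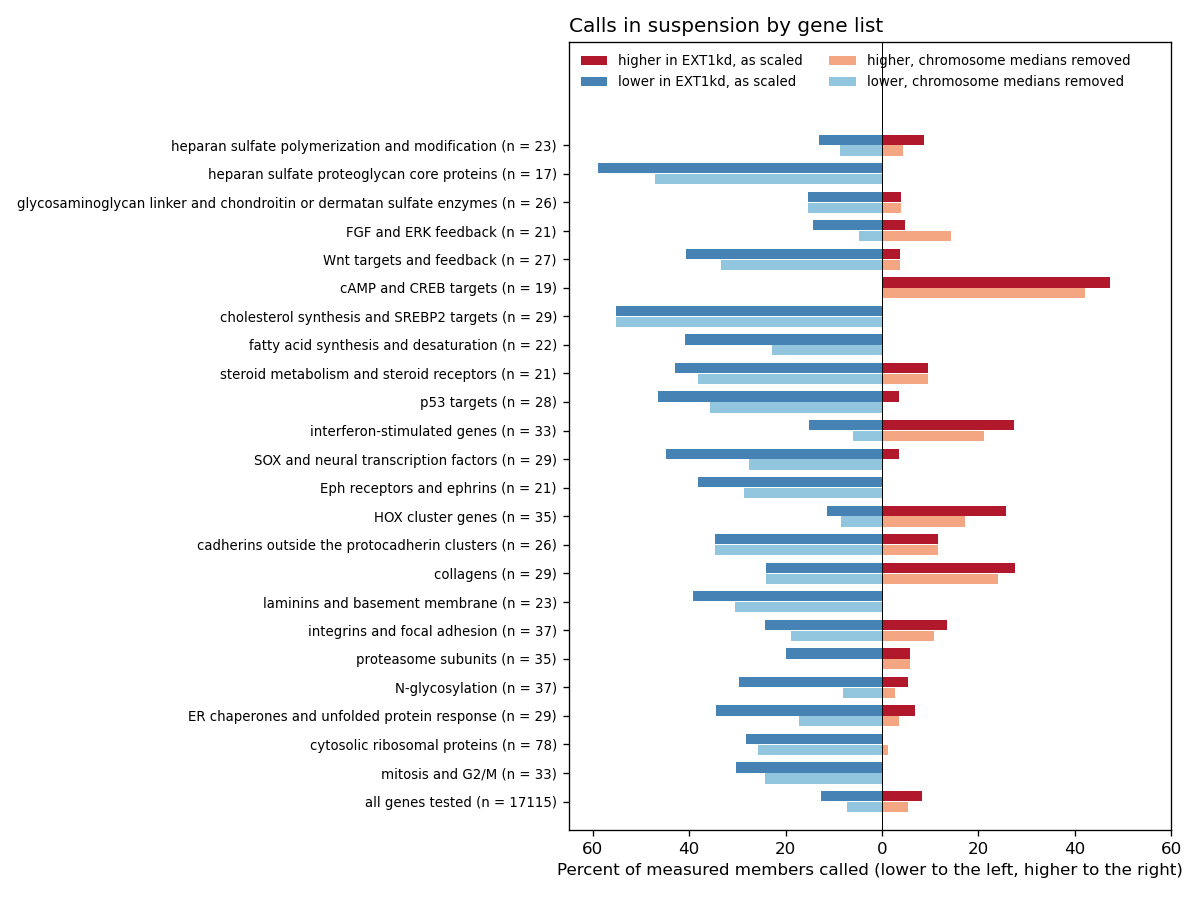
Percent of the measured members called in suspension for a selection of the 55 gene lists, lower to the left and higher to the right, as scaled (dark) and after removal of chromosome medians (light), with all genes tested at the bottom. Cholesterol genes keep 16 lower of 29 in both, whereas the 7 lower proteasome subunits fall to 0.

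Of 35 proteasome subunits 2 were higher and 7 lower, but 2 and 0 after removal. Of the 7, PSMB5, PSMC1, PSMC6, PSME1 and PSMA3 lie on chromosome 14. PSMC1 was at 50.6, 58.9 and 56.8 CPM in EXT1kd and 67.7, 78.4 and 67.2 CPM in WT (-0.36, adjusted p = 0.00366), and at -0.00 after removal (adjusted p = 0.998). PSMB5 (-0.40), PSMC6 (-0.35), PSME1 (-0.27) and PSMA3 (-0.21) were at -0.04, 0.01, 0.09 and 0.14 after removal (adjusted p = 0.848, 0.941, 0.562 and 0.199). PSMB5, PSME1 and PSMA3 also lost their calls without EXT1kd replicate 1 (adjusted p = 0.0828, 0.233 and 0.19) or WT replicate 2 (adjusted p = 0.0599, 0.109 and 0.107). PSME1 lost its call without any 1 library but EXT1kd replicate 3, and PSMA3 without any 1 library but EXT1kd replicate 2. Both also lost it with library totals (adjusted p = 0.0647 and 0.0744) and on both FPKM scales, and PSMA3 with RLE scaling (adjusted p = 0.0561) and with no filter on low counts (adjusted p = 0.087). The number lower was 3, 2 and 3 without WT replicate 1, 2 or 3 and 2 without EXT1kd replicate 1, and the number higher was 0 without any 1 library but EXT1kd replicate 1. N-glycosylation genes had 2 of 37 higher and 11 lower (1 and 3 after removal; 7 lower without WT replicate 2, and 6 without WT replicate 3 or EXT1kd replicate 1), with the fucosyltransferase FUT9 at 2.10, 1.70 and 1.01 CPM in EXT1kd and 4.26, 4.21 and 4.08 CPM in WT (-1.40, SE 0.21).

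ER chaperones had 2 of 29 higher and 10 lower (1 and 5 after removal; 5 lower without WT replicate 2 and 3 without EXT1kd replicate 1, and 1 higher without any 1 library but EXT1kd replicate 1). DERL3, of ER-associated degradation, was at -1.08 (SE 0.18) and CRELD2 at -0.63 (SE 0.10), both on chromosome 22, and at -0.79 and -0.34 after removal. The reductase DNAJC10 was higher (0.40, SE 0.07). Of 30 ATF4 targets 5 were higher and 3 lower (1 and 1 after removal; 3 higher without any 1 WT library or EXT1kd replicate 3), with the folate enzyme ALDH1L2 at 8.96, 9.0 and 8.13 CPM in EXT1kd and 21.0, 20.3 and 19.9 CPM in WT (-1.23, SE 0.13). Of 44 nuclear genes of oxidative phosphorylation 0 were higher and 9 lower (5 after removal; 5 without EXT1kd replicate 1). The share called, 20.5%, was near the 20.9% of all genes tested. SDHA, the catalytic subunit of complex II, was at 181, 185 and 195 CPM in EXT1kd and 282, 279 and 269 CPM in WT (-0.56, SE 0.06), and NDUFS6 was at -0.55 (SE 0.13). Both lie in the first window of chromosome 5, and with the median of genes within 10 Mb removed NDUFS6 was at -0.30 (adjusted p = 0.161). NDUFS3 and COX8A, on chromosome 11, did not pass after removal (adjusted p = 0.206 and 0.109) or with local medians removed (adjusted p = 0.184 and 0.146).

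The 78 cytosolic ribosomal proteins had 0 higher and 22 lower (1 and 20 after removal), but 10 lower without WT replicate 2, 12 without WT replicate 3 and 5 without EXT1kd replicate 1. RPL3 was at 1670.0, 1920.0 and 1950.0 CPM in EXT1kd and 2460.0, 2600.0 and 2490.0 CPM in WT (-0.44, SE 0.07), and did not pass after removal (adjusted p = 0.184) or with local medians removed (adjusted p = 0.193). RPS3 (-0.52) was at adjusted p = 0.0612 and 0.0981 in those fits. Ribosomal protein genes have many pseudogenes, whose reads cannot be told from theirs here.

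Of 33 mitosis and G2/M genes 0 were higher and 10 lower (8 after removal), but 6, 5 and 5 without WT replicate 2, WT replicate 3 or EXT1kd replicate 1. The ubiquitin-conjugating enzyme UBE2C was at 73.5, 74.9 and 73.4 CPM in EXT1kd and 96.1, 98.7 and 101 CPM in WT (-0.42, SE 0.08), and the kinesin KIF20A was at -0.37 (SE 0.07). BIRC5, survivin, was at -0.37 (SE 0.07) and lost its call with local medians removed (adjusted p = 0.2). DLGAP5 on chromosome 14 was at -0.43 and lost its call after removal (adjusted p = 0.562) and with local medians removed (adjusted p = 0.398). Cyclin CCNB1 overlapped between groups (-0.03, adjusted p = 0.786). Of 40 replication and S phase genes 4 were higher and 3 lower (4 and 1 after removal; 1 higher without WT replicate 1 or 3 or EXT1kd replicate 3, 2 higher without WT replicate 2 or EXT1kd replicate 2, and 1 lower without WT replicate 2), with the chromatin factor UHRF1 at 0.35 (SE 0.07) and MCM2 not past the threshold (0.15, adjusted p = 0.185). The share of these 40 genes called was 17.5%, against 20.9% of all genes tested.

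Of 32 host factors that AAV uses to attach and enter, 6 were higher and 3 lower (3 and 2 after removal; 3 higher without WT replicate 1). The AAV receptor gene KIAA0319L did not pass (-0.10, adjusted p = 0.285), with means of 96.5 ± 1.67 CPM in EXT1kd and 103 ± 2.69 CPM in WT. The integrin subunit ITGAV was at 137, 143 and 132 CPM in EXT1kd and 98.2, 101 and 102 CPM in WT (0.46, SE 0.07). VPS51, of a tethering complex for transport from endosomes to the Golgi, was at 32.6, 33.0 and 40.0 CPM in EXT1kd and 59.3, 61.6 and 53.5 CPM in WT (-0.72, SE 0.11; -0.50 after removal). TMED10, a cargo receptor on chromosome 14, was at -0.52 and did not pass after removal (-0.16, adjusted p = 0.0854) or with local medians removed (-0.17, adjusted p = 0.0769).

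Of 35 lysosome and autophagy genes 5 were higher and 3 lower (6 and 3 after removal; 2 higher without WT replicate 1, and 3 without WT replicate 2 or 3 or EXT1kd replicate 3). The share called, 22.9%, was near the 20.9% of all genes tested. Beside CTSZ the protease CTSH (-0.93, SE 0.13) and the sialidase NEU1 (-0.60, SE 0.08) fell. TSC1, an inhibitor of mTORC1, was at 95.6, 91.2 and 91.5 CPM in EXT1kd and 58.1, 53.3 and 56.6 CPM in WT (0.73, SE 0.08), of which 0.43 remained after removal of the median of chromosome 9.

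Non-coding RNAs were named in the same way, the 3 largest rises and falls with a mean of at least 2 CPM. PURPL, a p53-regulated RNA, was at 14, 9.73 and 9.98 CPM in EXT1kd and 3.53, 3.51 and 4.21 CPM in WT (1.58, SE 0.18). BISPR, the divergent neighbour of BST2, was at 3.87, 2.68 and 3.81 CPM in EXT1kd and 1.40, 1.40 and 1.24 CPM in WT (1.35, SE 0.31), and the antisense RNA HOXA-AS3 was at 1.34 (SE 0.20). The FZD10 divergent transcript FZD10-DT was at 5.70, 4.50 and 4.88 CPM in EXT1kd and 12, 13.2 and 11.5 CPM in WT (-1.29, SE 0.15). TRHDE-AS1 (-1.47) and LINC00511 (-1.22) also fell. The strand setting of the counting is not given in the sources used here, so that reads of these RNAs and of overlapping genes cannot be told apart.

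Markers of other cell types were mostly too low to test, and few passed. Of 14 fibroblast markers 9 were measured, 0 higher and 2 lower, FBLN1 and the smooth muscle actin ACTA2 (-0.80, SE 0.14), and the list summed to 85.9 to 96.6 CPM in EXT1kd and 143 to 153 CPM in WT. FBLN1 was the most abundant of them (mean 67.6 CPM over the 6 libraries). The leukocyte list summed to 215 to 240 CPM in EXT1kd and 206 to 218 CPM in WT. Most of that came from LCP1 (mean 216 CPM), which was not called. Of the 14 leukocyte markers 3 were measured and 1 was higher. This was CD14, with 9, 15 and 15 reads in EXT1kd and 6, 5 and 1 in WT, 3.28-fold higher (95% exact binomial interval 1.68 to 6.87), a call lost without WT replicate 3 (adjusted p = 0.0907), EXT1kd replicate 2 (adjusted p = 0.0673) or EXT1kd replicate 3 (adjusted p = 0.0531). The kidney markers UMOD and SLC12A3, the adrenal markers TH and CYP11B1 and the hepatocyte markers APOB, APOC3, FGA and HNF4A had no read in any of the 6 libraries. Of 15 kidney, 14 adrenal and 12 endothelial markers 6, 3 and 5 were measured and did not pass. The kidney list summed to 122 to 129 CPM in EXT1kd and 114 to 119 CPM in WT, with PODXL the most abundant (mean 81.7 CPM). The part of other cells in the results was not tested.

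The knockdown effect in suspension differed from that in adherent culture for many genes. The difference between the 2 effects passed for 4114 of 17115 genes (24.0%), and for 2428 with the chromosome medians of each culture removed. Chromosome 11 had a median of -0.22 in suspension and 0.29 in adherent culture, chromosome 14 had -0.36 and 0.01, chromosome 22 had -0.29 and 0.06, and chromosome 9 had 0.30 and 0.29. The laminin list had 0 higher and 9 lower of 23 in suspension and 13 higher and 1 lower in adherent culture, where 2609 of all genes tested were higher (15.2%) and 2024 lower (11.8%), and 18 of its 23 genes passed the test of the difference. Of the cholesterol genes 13 of 29 passed that test, of the core proteins 6 of 17 and of the cAMP targets 9 of 19.

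**Figure D5:**
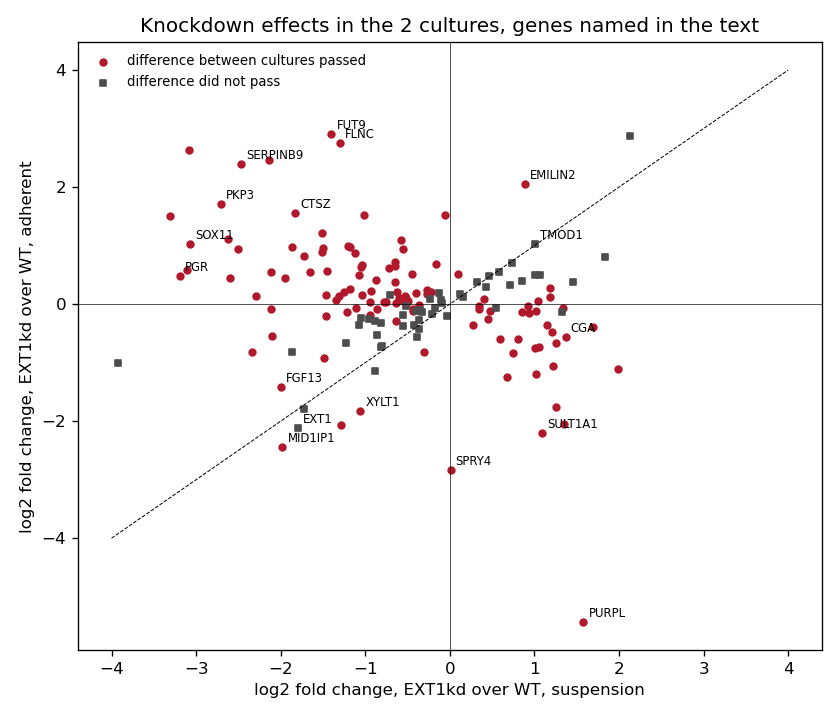
Log2 fold change of EXT1kd over WT in suspension (x axis) and in adherent culture (y axis) for the genes named in the text. Red circles mark genes whose difference between cultures passed. EXT1, MID1IP1 and FGF13 lie low in both cultures, while SOX11, PKP3, FLNC and CTSZ lie to the left of 0 in suspension and above 0 in adherent culture.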

How the data were processed

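RNA was measured by polyA RNA sequencing in 12 libraries, 3 for each line in each culture, and this report compares the 6 from suspension. The authors deposited raw read counts per gene and FPKM values of the same genes. The submitters' processing notes name HISAT2, featureCounts 1.5.0 and the build GRCh38. For the annotation release and the strand setting, the sources used here give nothing. From the counts, edgeR 4.0.16 in R 4.3.3 was fitted to all 12 libraries with a mean for each group, TMM scaling, edgeR's filter on low counts and the quasi-likelihood test. CPM values use the library totals times the TMM factors. Benjamini-Hochberg adjustment ran over all 17115 genes tested, with a threshold of 0.05. The test was also run on independent counts simulated from its own estimate of the spread, which cannot show whether the real libraries are independent. For the fit after removal, the median log2 fold change of each chromosome over genes with a mean of at least 5 CPM became an offset, and likewise medians of genes within 10 Mb.

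Alternatives were other scalings and filters, DESeq2 1.42.0, limma 3.58.1 (voom on counts, and log2 of FPKM plus 1 or 0.1), the suspension libraries alone, a replicate block and leaving out each library. A fold change on the FPKM scales understates that of low genes. Intervals on reads cover counting error only. Named genes were EXT1, the largest changes described in the text, up to 4 called members of each list with the largest change and each list's first member. The text gives part of these, and SREBF2, PDE4B, PDE4D, VGF, GEM, PAPSS2, HS3ST2, PSME1 and PSMA3 fall outside the rule and were chosen after their values were seen. The members and lists were chosen with earlier results of these data known. Promoters are from RefSeq. Some items are not reported here.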

Additional observations from a re-analysis of the deposited data

Results flagged for a closer look

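For the genes below, the test of the difference between the knockdown effects, suspension minus adherent, passed at an adjusted p of 0.05 in edgeR's quasi-likelihood test. Each value is that difference on the log2 scale, so that a positive one means a higher fold change of EXT1kd over WT in suspension. The values are as scaled and include any shift of the whole chromosome. On chromosome 11, which carries EXT2, PKP3 and FADS2, the median was -0.22 in suspension and 0.29 in adherent culture. The share of all genes tested that passed was 24.0%, so that a passing gene is no rare event here.

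Among the largest rises in suspension the differences were CGA 1.93, ZNF667 1.92, BST2 3.01, GADD45B 2.27, YJEFN3 1.69, SULT1A1 3.29, NTNG2 0.99, ASTN1 1.14, ZNF83 1.76 and AMH 1.09. Among the largest falls they were SOX11 -4.09, PKP3 -4.42, KRT19 -3.73, PLA2G4A -3.04, SPARC -3.46, SEMA5A -1.52, ENPEP -2.43, FGF13 -0.58, SLITRK5 -2.39, CRABP2 -2.85 and CTSZ -3.37, while MID1IP1, which fell in both cultures, was at 0.47. The non-coding RNAs were at PURPL 7.02, BISPR 3.40, HOXA-AS3 1.41, TRHDE-AS1 -1.27, FZD10-DT 0.77 and LINC00511 -1.09. PURPL averaged 0.101 CPM in EXT1kd and 4.76 CPM in WT in adherent culture, so that the size of its difference depends on the prior count. The same holds for BISPR, BST2, SPOCK3, INHBA and SEMA4A, which were low in adherent culture.

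In the heparan sulfate pathway the differences were EXT2 -0.96, EXTL2 0.39, SULF2 0.50, PAPSS2 0.63, SPOCK3 -5.73, GPC5 -2.19, XYLT1 0.76, DSEL -2.54 and CHST14 -1.03. Among signalling genes they were SPRY4 2.84, SPRED3 1.18, SFRP1 -1.62, FZD2 -1.30, GREM1 -2.02, INHBA 3.10 and LTBP2 -0.99. The cAMP and immediate early genes were at CREM 0.60, SIK1 1.78, PDE4B 1.60, PDE4D 0.70, VGF 1.92 and FOSB 2.21. These genes were named among the rises in suspension, so that their shared positive sign is no separate result. For STC1 (0.45) and GEM (0.02), also higher in suspension, the difference did not pass (adjusted p = 0.122 and 0.96). Part of a difference that passed can come from the adherent effect, which was -0.73 for SIK1, -0.84 for PDE4B and -1.24 for VGF.

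Lipid and steroid genes were at SREBF2 -0.55, TM7SF2 -1.19, HMGCS1 -0.77, ACAT2 -0.35, FASN -0.44, FADS2 -1.50, LIPH 1.05, PNPLA7 0.91, LIPE -2.55, PGR -3.67 and STS -4.82. The p53 targets were at SPATA18 -2.66, DDB2 -0.78 and TP53I3 -1.37, the interferon-induced membrane proteins at IFITM2 -2.73 and IFITM3 -2.46, and CD14 at 2.07. Developmental and neuronal genes were at SOX3 -1.56, SOX9 -0.80, NEFM -2.39, L1CAM 1.51, PLXNA1 -0.42, SEMA4A -1.56, SEMA4F -0.67, EPHB6 -1.46, HOXC10 -0.75, HOXA5 0.94 and HOXD9 0.98.

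Adhesion and matrix genes were at PROM1 -4.61, CDH2 -0.44, CDH3 -2.21, PCDH17 -1.43, DCHS1 -1.99, CDH12 1.41, COL1A1 -0.84, COL26A1 -2.01, COL2A1 -1.46, COL5A1 -2.15, LAMA1 -1.59, LAMC3 -1.05, FBLN1 -1.68, EMILIN2 -1.17, EMILIN3 -1.28, ITGA8 -0.57, FLNC -4.05 and TNS3 -1.70. Serpins and growth factors were at SERPINB9 -4.86, SERPINF1 -1.42, SERPINB1 -1.67 and PDGFD -3.69. Genes of cell-wide complexes and the endolysosomal system were at VPS51 -1.33, TMED10 -0.51, PSME1 -0.51, COX8A -0.67, SDHA -0.62, NDUFS3 -0.59, DLGAP5 -0.32, BIRC5 -0.36, UHRF1 0.43, CTSH -1.15, NEU1 -0.70, CRELD2 -0.83, DNAJC10 0.32, FUT9 -4.31, RPL3 -0.36 and RPS3 -0.62.

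Of the 116 differences above that passed, 22 did not pass when the chromosome medians of each culture were removed. With their adjusted p in that fit, these were MID1IP1 (0.107), BISPR (0.0775), FZD10-DT (0.131), EXTL2 (0.153), XYLT1 (0.099), SREBF2 (0.135), TM7SF2 (0.0502), ACAT2 (0.137), FASN (0.435), DDB2 (0.157), PLXNA1 (0.29), CDH2 (0.141), TMED10 (0.299), PSME1 (0.515), COX8A (0.724), NDUFS3 (0.72), DLGAP5 (0.762), BIRC5 (0.524), UHRF1 (0.0745), DNAJC10 (0.317), RPL3 (0.967) and RPS3 (0.675).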

How the results depend on the processing

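EXT1 was lower under every alternative run for it, between -1.84 and -1.36. The 5 chromosome medians, recomputed over genes of at least 20 CPM and without each suspension library, kept their direction in those settings. Removing chromosome medians left 2166 changed genes (905 higher, 1261 lower), removing medians within 10 Mb left 2057 (883 and 1174), and the 6 suspension libraries alone gave 5361 (2509 and 2852). Leaving out 1 suspension library gave 2208 to 2911 changed genes, 767 to 1156 higher and 1431 to 1755 lower. The count that differed between cultures was 2428 with chromosome medians removed, and 3142 to 5068 without any 1 library. Without any 1 suspension library the medians ran from -0.22 to -0.18 on chromosome 6, 0.29 to 0.32 on chromosome 9, -0.24 to -0.20 on chromosome 11, -0.37 to -0.32 on chromosome 14 and -0.30 to -0.25 on chromosome 22. The smallest shifts of chromosomes 6, 11, 14 and 22 came without EXT1kd replicate 1. The cause of these moves was not tested.

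Of 165 genes named, 150 were called and 123 of these under every setting that tested them. Signs turned round for SPRY4 with chromosome (-0.02) or local medians removed (-0.06) and without WT replicate 1 (-0.03), WT replicate 3 (-0.003) or EXT1kd replicate 3 (-0.0035), and for ID1 without EXT1kd replicate 1 (0.12, and -0.35 to 0.12 over all libraries left out). They turned round for PSMB5 (0.00093) and PSMC1 (0.01) with local medians removed, for PSMC6 with chromosome medians removed (0.01), for PSME1 (0.09 and 0.13) and PSMA3 (0.14 and 0.11) with chromosome and local medians removed, and for CCNB1 with library totals (0.0048) and without EXT1kd replicate 1 (0.04, and -0.09 to 0.04 over all libraries left out). The difference between cultures of DLGAP5 was 0.06 with chromosome medians removed.

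Replicate numbers showed no consistent pairing of the samples. Deviations of same-numbered EXT1kd and WT libraries correlated across genes at 0.294, 0.15 and -0.17, and those of differently numbered libraries at -0.395 to 0.357. The replicate block gave 3521 changed genes and ended the call of 1 named gene, VGF (adjusted p = 0.0616). Genes under a mean of 5 CPM have no value under that filter, and PTN has no adjusted p in DESeq2. Low read numbers limit SPOCK3, GPC5, STS, EFNA2, PROM1, KRT80, PTN, PDGFD and CD14.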
